A study of Mus musculus with 9 samples.

Results

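Mitochondrial fatty acid oxidation was followed through 10 of its enzymes, Cpt1a, Cpt2, Acadvl, Acadl, Acadm, Acads, Hadha, Hadhb, Decr1 and Etfdh, in mouse hematopoietic stem cells (HSCs) that had kept or lost the gene Bcl11a. The genes were taken from a list of carnitine transfer and beta-oxidation enzymes that was drawn up because Acadm read lower on the arrays of heterozygous mice. For that reason every value of these enzymes that rests on the heterozygous arrays is given below as a description, without a test, and for them only the knockout was tested against the wild type. Each of the 10 genes had 1 probe set that named it alone, out of 22180 genes measured, and all 10 lay above the level filter that left 16636 genes for testing.

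The study placed 3 arrays in each of 3 genotypes, all with HSCs from mice aged 6 to 8 months and 1 array per biological replicate. WT mice carried Bcl11a fl/fl without Mx1-Cre, Het mice Bcl11a fl/wt with Mx1-Cre, and KO mice Bcl11a fl/fl with Mx1-Cre. All groups had 5 injections of poly(I:C), which raises interferon and so switches on Cre from the Mx1 promoter, a promoter active in many cell types besides HSCs; WT mice thus lacked Cre, a second difference from both other groups. The sorting gate kept cells with Kit, Sca-1 and CD150 on their surface and without CD48, Flt3 or lineage markers, and was set on YFP positive or negative cells; the labels do not say which applied to an array.

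Long-chain fatty acids enter mitochondria as carnitine esters, which the outer membrane enzyme CPT1 makes and the inner membrane enzyme CPT2 turns back into acyl-CoA. Each turn of beta-oxidation then starts with an acyl-CoA dehydrogenase chosen by chain length, goes on through the hydratase, dehydrogenase and thiolase steps, which the trifunctional protein carries out for long chains, and passes electrons through ETF and its dehydrogenase to ubiquinone. In HSCs this pathway is known for its part in maintenance, where PPAR delta and PML act upstream of it.

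Values are log2 expression from RMA, given per array in replicate order and as mean ± SD with n = 3 arrays. The array medians spanned 3.95 to 4.15, and the interquartile ranges 2.22 to 2.83. Transcripts that were absent gave a scale for background: on the 4 Xist-high arrays the Y-linked genes gave 2.22 to 3.32, and on the remaining 5 Xist itself gave 3.58 to 4.22. High Xist was found on 2 WT, 1 Het and 1 KO arrays, so the sexes were not balanced. Bcl11a read 8.73, 8.81 and 8.38 on the WT arrays, 8.34, 8.37 and 8.89 on the Het arrays and 7.82, 7.90 and 8.66 on the KO arrays, with the array labelled KO replicate 3 inside the WT range; no source used here places the probes relative to the deleted part, and the values therefore do not check the deletion. Of the gate's own markers, Kit read 8.75 to 10.01 over all arrays. Slamf1, which encodes CD150, read 4.64, 4.67 and 6.71 on the WT arrays against 6.61 to 7.34 for Het and 6.43 to 7.94 for KO. Flt3, which the gate excludes, read 4.99, 3.99 and 5.36 against 3.93 to 4.1 and 3.55 to 4.03. Both genes thus varied between WT arrays. WT replicate 3 for Slamf1 and WT replicate 2 for Flt3 lay within the Het and KO ranges. Neither passed between KO and WT (adjusted p = 0.543 and 0.475 with limma). Cd48, also excluded by the gate, read 3.63 to 4.83 on WT, 3.90 to 5.13 on Het and 3.92 to 4.71 on KO arrays.

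At 3 of the 10 enzymes, Acadm among them, the heterozygous arrays read lowest. The list was drawn up because Acadm read lower on those arrays, so this is a description without a test. Acadm, Acadvl and Etfdh each read lower on all 3 Het arrays than on all WT and all KO arrays. Of the 16636 genes tested, 104 had this pattern, these 3 included (0.625%). For Acadvl the gap to the KO arrays was marginal, with a highest Het value of 5.17 and a lowest KO value of 5.18. Of the 10 enzymes, none passed the test between KO and WT (0 of 10 at an adjusted p under 0.05 with limma, where 0.0421% of all genes tested were called and 1 of the 10 had an unadjusted p under 0.05, against 8.21% of all genes). In bulk RNA such as this, fewer cells of a type and less RNA per cell cannot be told apart.

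**Figure D1:**
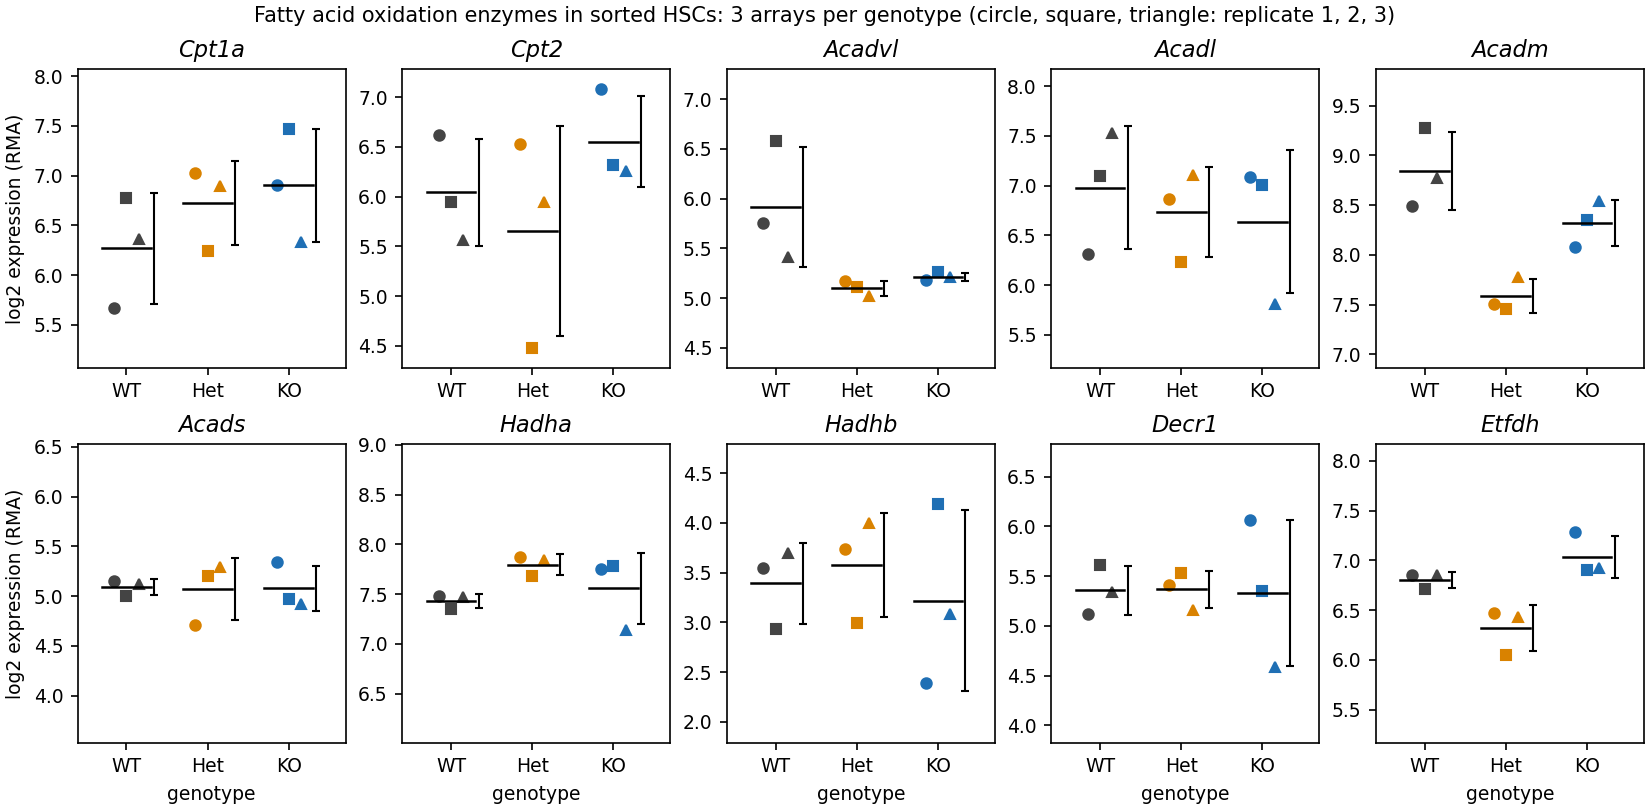
Log2 expression (RMA) of the 10 enzymes on each array, by genotype; each panel spans 3 log2 units, symbols mark replicates, horizontal lines are means and vertical bars are ± 1 SD (n = 3). The Het arrays of Acadm, Acadvl and Etfdh lie below every WT and KO array, for Acadvl only marginally below KO (5.17 against 5.18). Those of Hadha lie above every WT array.

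The promoters of the 3 enzymes with low Het values are shown because their Het arrays lay below all others, for Acadvl only marginally. The sequence between Hadha and Hadhb is shown because both genes start from it. Sequences are from RefSeq on GRCm38.p6, matched by symbol for 9 of the 10 enzymes, and run 5′ to 3′ on the gene's strand over the 250 bases before its start. Capitals mark AGGTCA, the half-site of nuclear receptors such as the PPARs, and TGACCA on either strand in the first 3, where Etfdh has neither, and GGGCGG, the GC box, on either strand in the last.
Acadm, chr3:153944644-153944893, minus strand: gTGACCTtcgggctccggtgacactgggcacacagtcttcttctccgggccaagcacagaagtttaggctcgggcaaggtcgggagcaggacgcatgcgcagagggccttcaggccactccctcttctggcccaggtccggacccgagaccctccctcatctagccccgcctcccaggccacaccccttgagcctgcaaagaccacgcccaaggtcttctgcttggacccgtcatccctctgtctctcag
Acadvl, chr11:70015429-70015678, minus strand: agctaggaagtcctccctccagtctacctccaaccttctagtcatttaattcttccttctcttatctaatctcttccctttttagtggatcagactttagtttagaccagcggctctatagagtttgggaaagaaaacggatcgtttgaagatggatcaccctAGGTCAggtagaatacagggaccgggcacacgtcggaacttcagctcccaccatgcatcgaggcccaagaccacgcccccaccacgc
Etfdh, chr3:79628768-79629017, minus strand: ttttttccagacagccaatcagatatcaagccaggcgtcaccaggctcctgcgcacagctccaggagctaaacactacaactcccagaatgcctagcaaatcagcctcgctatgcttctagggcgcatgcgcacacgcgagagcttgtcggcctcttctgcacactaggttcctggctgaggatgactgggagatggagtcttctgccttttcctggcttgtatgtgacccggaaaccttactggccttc
Hadhb, chr5:30155003-30155252, plus strand: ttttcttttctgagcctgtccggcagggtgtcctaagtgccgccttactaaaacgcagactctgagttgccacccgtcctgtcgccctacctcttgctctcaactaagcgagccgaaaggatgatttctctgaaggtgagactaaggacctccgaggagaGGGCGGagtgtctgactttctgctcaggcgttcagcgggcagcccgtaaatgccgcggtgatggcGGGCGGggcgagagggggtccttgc

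The half-site AGGTCA was found in the windows of Acadm, Acadvl and Cpt1a (3 of 9), and in 14.02% of the 32851 windows of the same length in the table. It begins 249 bases before the start in Acadm, 87 in Acadvl and 94 in Cpt1a. The direct repeat of this half-site with a spacer of 1 base, DR1, the form bound by PPAR with RXR, was found in 0 of 9 windows and in 0.0335% of all. TGACCA, the motif that BCL11A recognises, was found in 0 of 9 and in 11.4% of all windows; its reverse complement shares the letters GGTCA with the half-site. The GC box was present in 6 of 9 (32.7% of all) and CCAAT in 2 of 9, Etfdh and Cpt1a (33.8%). The windows of Hadha and Hadhb overlap by 228 bases and are not independent. All motifs were searched on both strands, and a match describes letters, not binding.

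The carnitine transfer enzymes read higher on average in KO than in WT cells, but the arrays overlapped. Cpt1a encodes the outer membrane carnitine palmitoyltransferase that sets the rate of long-chain fatty acid entry. It read 5.67, 6.78 and 6.36 on the WT arrays, 7.03, 6.24 and 6.90 on the Het arrays and 6.91, 7.47 and 6.33 on the KO arrays. Its lowest value over all arrays was on WT replicate 1 and its highest on KO replicate 2. The KO mean was 1.55-fold the WT mean (KO minus WT 0.63, SE 0.377, 95% interval −0.20 to 1.47, adjusted p = 0.672 with limma). The difference was 0.33 without WT replicate 1 and 0.35 without KO replicate 2, and it was 0.25 when each array's interquartile range entered the fit.

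Cpt2, the inner membrane partner, read 6.62, 5.95 and 5.56 on the WT arrays, 6.53, 4.48 and 5.95 on the Het arrays and 7.08, 6.32 and 6.26 on the KO arrays. It had the widest range of the 10 enzymes, 2.60 log2 units, and that range was set by Het replicate 2. The KO and WT means differed by 0.51 (SE 0.496, 95% interval −0.59 to 1.61, adjusted p = 0.772), and Het minus WT was −0.39, or 0.20 without Het replicate 2.

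The acyl-CoA dehydrogenases divided by gene. Acadm, the medium-chain enzyme, read 8.49, 9.27 and 8.77 on the WT arrays, 7.51, 7.46 and 7.78 on the Het arrays and 8.08, 8.35 and 8.54 on the KO arrays. The Het arrays lay below all others, and the KO arrays overlapped the WT arrays only at their top, where KO replicate 3 read above WT replicate 1. By means the order was WT at 8.84 ± 0.395, KO at 8.32 ± 0.231 and Het at 7.58 ± 0.172. The Het level was 41.8% of the WT level (Het minus WT −1.26), and leaving out any single array kept this difference between −1.44 and −1.05. The difference was −0.85 among mice with high Xist (1 Het and 2 WT arrays) and −1.79 among the others (2 and 1).

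In KO cells Acadm stood at 69.7% of the WT level, which the test did not separate from WT (KO minus WT −0.52, SE 0.259, 95% interval −1.09 to 0.05, adjusted p = 0.633 with limma). WT replicate 2, the highest of the 9 arrays, held much of this difference, which was −0.31 without it. Split by Xist, the KO and WT difference was −0.09 on the high arrays (1 and 2 of each) and −1.06 on the others (2 and 1). KO minus Het was 0.74, with no overlap between those arrays.

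Acadvl, the membrane-bound very-long-chain enzyme, read 5.75, 6.58 and 5.41 on the WT arrays, 5.17, 5.11 and 5.02 on the Het arrays and 5.18, 5.26 and 5.21 on the KO arrays. Both groups that carried Cre lay below every WT array, as 1.36% of all genes tested did, and they were close together, with SDs of 0.0755 in Het and 0.0404 in KO against 0.602 in WT cells. KO minus WT was −0.70 (SE 0.290, 95% interval −1.34 to −0.05, unadjusted p = 0.0364, adjusted p = 0.581), the most negative difference among the 10, which did not pass over all genes. Without WT replicate 2 it was −0.36, and Het minus WT changed from −0.81 to −0.48. It was −0.37 on the Xist-high arrays and −1.36 on the others, where the WT group is WT replicate 2 alone.

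Acadl, the long-chain enzyme, read 6.31, 7.10 and 7.53 on the WT arrays, 6.87, 6.23 and 7.11 on the Het arrays and 7.09, 7.01 and 5.81 on the KO arrays. All groups overlapped, and the lowest array was KO replicate 3. KO cells differed from WT by −0.34 (SE 0.424, 95% interval −1.28 to 0.60, adjusted p = 0.821), and it was 0.07 without that array and −0.94 when the interquartile range entered the fit.

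Acads, the short-chain enzyme, spanned the narrowest range, 0.63 log2 units over 9 arrays, from 4.71 on Het replicate 1 to 5.34 on KO replicate 1. Its means were 5.09 ± 0.0794 for WT, 5.07 ± 0.312 for Het and 5.08 ± 0.229 for KO cells. The difference between KO and WT was −0.01 (SE 0.237, adjusted p = 0.993), with a 95% interval of −0.54 to 0.51. The 4 dehydrogenases thus covered differences of −0.70 to −0.01 between KO and WT cells, although the sign turned for Acadl without KO replicate 3 and for Acads with array weights (0.04).

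The subunits of the trifunctional protein gave readings of unequal use. Hadha, which encodes the alpha subunit with the hydratase and long-chain 3-hydroxyacyl-CoA dehydrogenase activities, read 7.48, 7.35 and 7.47 on the WT arrays, 7.87, 7.68 and 7.84 on the Het arrays and 7.75, 7.78 and 7.14 on the KO arrays. Het arrays lay above every WT array, while the KO group held both values above the WT range and, on KO replicate 3, the lowest of all arrays. Het minus WT was 0.36 (0.30 to 0.42 over the alternatives), or 1.29-fold. KO minus WT was 0.12 (SE 0.234, 95% interval −0.40 to 0.64, adjusted p = 0.885), 0.33 without KO replicate 3 and −0.02 both after a second quantile normalization and when the interquartile range entered the fit.

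Hadhb, which encodes the beta subunit with the thiolase activity, read 2.39 to 4.19 over all arrays, inside the span in which absent transcripts read. Its KO minus WT difference was −0.17 (SE 0.448, adjusted p = 0.916), and the probe set gave no order of the genotypes. Hadha and Hadhb lie head to head in the RefSeq promoter table, on opposite strands with 272 bases between their starts.

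Decr1, the 2,4-dienoyl-CoA reductase that prepares unsaturated fatty acids for beta-oxidation, read 5.12, 5.61 and 5.34 on the WT arrays, 5.41, 5.53 and 5.16 on the Het arrays and 6.06, 5.35 and 4.59 on the KO arrays. The KO arrays held both the highest and the lowest of the 9 values. For KO against WT the difference was −0.02 (SE 0.344, 95% interval −0.79 to 0.74, adjusted p = 0.991), 0.35 without KO replicate 3 and −0.39 without KO replicate 1.

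Etfdh, the inner membrane oxidoreductase that passes electrons from acyl-CoA dehydrogenases to ubiquinone, read 6.85, 6.71 and 6.85 on the WT arrays, 6.47, 6.05 and 6.43 on the Het arrays and 7.28, 6.90 and 6.92 on the KO arrays. The 3 groups did not overlap, with Het below WT and WT below KO. The order of means was KO at 7.03 ± 0.214, WT at 6.80 ± 0.0808 and Het at 6.32 ± 0.232. KO minus WT was 0.23 (SE 0.223, 95% interval −0.26 to 0.72, adjusted p = 0.771 with limma), 0.07 after a second quantile normalization and 0.11 without KO replicate 1. Het minus WT was −0.49, and it was −0.42 among mice with high Xist and −0.45 among the others. KO minus Het was 0.72.

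As a set the enzymes showed no common direction between KO and WT cells. Of 10, 4 were higher and 6 lower in KO cells, with a median log2 difference of −0.02 where the median over all genes tested was −0.04. All 3 KO arrays lay above all WT arrays for 1 enzyme, Etfdh (6.51% of all genes tested), and below them for 1, Acadvl (7.32%). The median difference was −0.04 without WT replicate 1, 0.01 without WT replicate 2 and 0.18 without KO replicate 3. The median over the 10 enzymes on each array had a pooled SD within genotypes of 0.41.

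Between Het and WT cells 4 enzymes were higher and 6 lower, with a median of −0.13 against −0.01 over all genes tested. The Het arrays lay below all WT arrays for Acadm, Acadvl and Etfdh (3 of 10; 3.9% of all genes tested) and above them for Hadha (1 of 10; 4.51%). This is the contrast in which Acadm was picked, so these counts describe the choice and carry no test. Between KO and Het cells the same 3 genes lay above on all KO arrays (4.42% of all genes tested) and none lay below (5.4%). For Acadvl this rested on 5.18 against 5.17, and its KO minus Het difference was 0.12. None of the 10 enzymes lay above both other genotypes on all Het arrays (0.787% of all genes tested). Over all genes, an unadjusted p under 0.05 was reached by 4.89% between Het and WT and by 4.56% between KO and Het. The comparisons share their WT or their Het arrays.

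**Figure D2:**
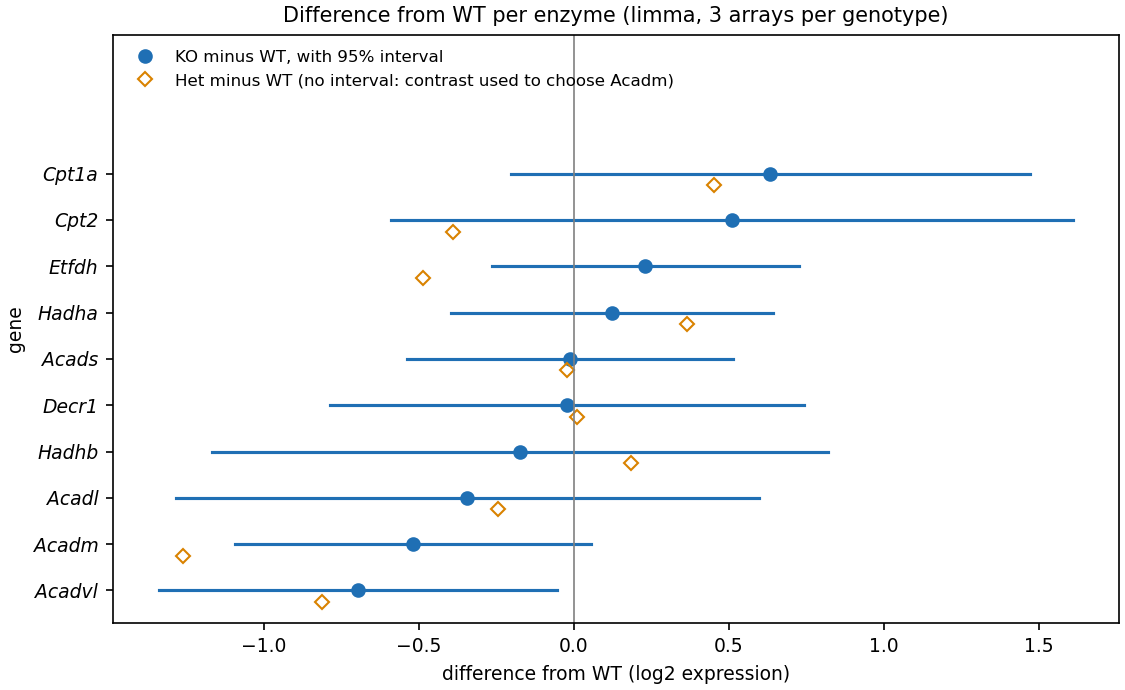
Difference from WT in log2 expression for each enzyme, ordered by KO minus WT (filled circles, with limma's 95% interval); open diamonds give Het minus WT. The interval of Acadvl, −1.34 to −0.05, is the only one of the 10 that leaves out 0, before adjustment over all genes, and Cpt2, Etfdh, Hadhb and Decr1 lie on opposite sides of 0 in both comparisons.

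The array that read lowest was compared with the spread of the arrays. For 7 of the 10 enzymes the lowest of the 9 values was on WT replicate 1, Het replicate 2 or KO replicate 3, the 3 arrays with the smallest interquartile range (2.22, 2.39 and 2.42). Over all genes tested that share was 40.9%, and among the 7768 genes with a mean of at least 5 it was 57.6%. KO replicate 3 held the lowest value of Acadl, Hadha and Decr1, and Het replicate 2 that of Acadm, Cpt2 and Etfdh. The part of the spread of arrays in the genotype differences was examined only as a term in the fit: with it, Acadm differed by −1.28 between Het and WT and by −0.56 between KO and WT, and Etfdh by −0.53 and 0.14.

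Likeness from array to array was measured as the root-mean-square distance between 2 profiles over the 9 arrays, each centred on its own mean, in log2 units; the profile of Acadm itself departs from its mean by 0.566 on this scale. Acadvl was the enzyme nearest to Acadm, at 0.350, which was rank 26 of 16635 genes, and Etfdh followed at 0.478 and rank 682. The other enzymes lay between 0.608 (Acads) and 0.836 (Hadhb), farther away than a flat profile would be. Among all pairs the closest was Acads and Hadha, at 0.277, which are also the enzymes with the narrowest ranges, and the farthest was Hadhb and Cpt2, at 0.912.

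The genes with profiles most like that of Acadm were Arfip1 (0.253), Atpsckmt (0.276), Cep126 (0.282), S100a14 (0.296) and Uba6 (0.306). Each of them read highest on WT replicate 2, as Acadm and Acadvl did. Arfip1 read 5.99, 7.02 and 5.75 in WT, 4.86, 5.31 and 5.25 in Het and averaged 5.66 ± 0.104 in KO cells. Cep126, at 3.81 in WT and 2.93 in Het cells, read in the span of absent transcripts on all arrays but WT replicate 2 (4.32). S100a14 did so on all arrays but WT replicate 2 (4.57) and KO replicate 3 (4.33). Atpsckmt, at 3.61 to 5.35, lay partly in that span.

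**Figure D3:**
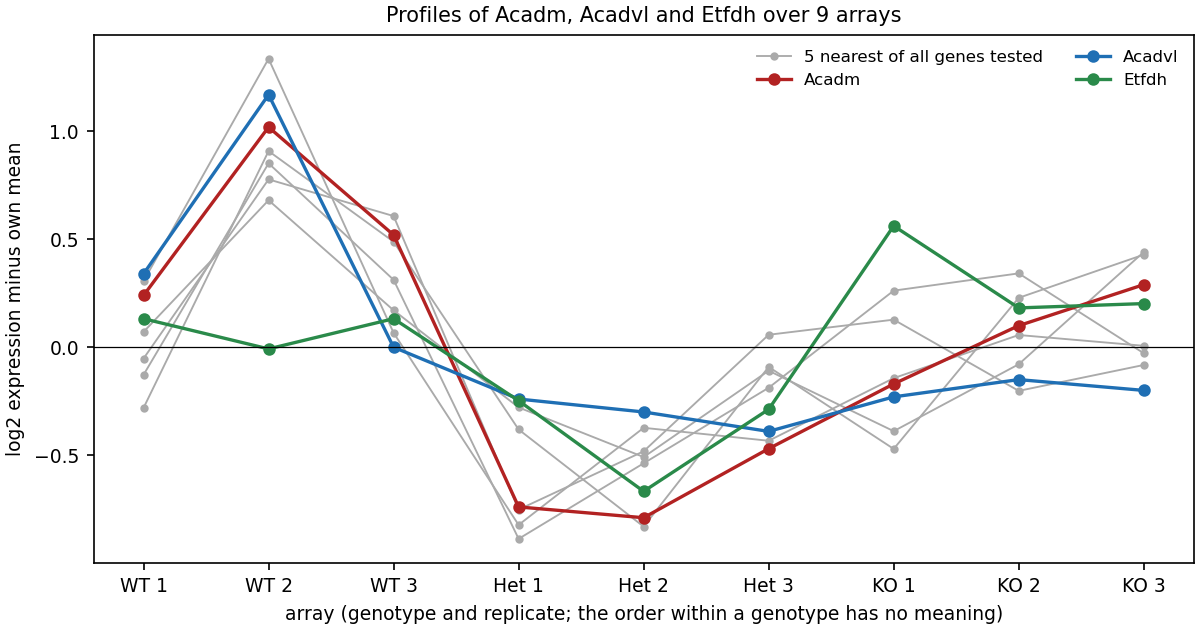
Log2 expression minus each gene's own mean over the 9 arrays for Acadm, Acadvl, Etfdh and, in grey, the 5 genes nearest to Acadm; lines join arrays only to guide the eye. Acadm, Acadvl and all 5 neighbours peak on WT replicate 2, and Etfdh does not.

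The nearest tested genes beside Acadm on its chromosome had readings of little use for comparison. Rabggtb, a subunit of the geranylgeranyl transferase for Rab proteins, ranged from 1.49 on WT replicate 2 to 8.69 on WT replicate 1; the RefSeq table places 3 small nucleolar RNA genes inside it, whose RNA the probe set may or may not measure. Lhx8, a homeobox gene on the other side, read 3.30 to 4.62, in the span of absent transcripts on all arrays but Het replicate 2.

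The rest of the pathway was described from 9 lists of 105 genes, 88 of them tested. None passed between KO and WT, with limma's smallest adjusted p at 0.421 (11 of 88 at an unadjusted p under 0.05, where 8.21% of all genes tested were), and 49 were higher and 39 lower, with a median of 0.03. Between Het and WT 51 were higher and 37 lower, with a median of 0.12. All 3 KO arrays lay above all WT arrays for 7 of the 88 (6.51% of all genes tested) and below them for 5 (7.32%). All 3 Het arrays lay above all WT arrays for 7 (4.51%) and below them for 6 (3.9%). The pathway genes named below for such a separation from WT are among these.

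Among enzymes of activation and the carnitine shuttle, 6 of 11 tested were higher and 5 lower in KO cells (median 0.01). Acsl4, which activates polyunsaturated fatty acids, read 5.44, 4.59 and 5.09 on the WT arrays, 6.40, 6.16 and 5.84 on the Het arrays and 6.44, 5.82 and 5.79 on the KO arrays. Both Cre-carrying groups lay above every WT array. KO arrays alone did so for 6.51% and Het arrays alone for 4.51% of all genes tested, and the share for both together was not counted. KO minus WT was 0.98 (SE 0.296, adjusted p = 0.449 with limma). The carnitine carriers gave smaller values: Slc25a20, the carnitine-acylcarnitine translocase, differed by −0.10 and Slc22a5, the carnitine importer, by −0.38, while Crat, carnitine acetyltransferase, differed by 0.52 (adjusted p from 0.672 to 0.938).

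Among 16 other mitochondrial beta-oxidation genes 10 were higher and 6 lower in KO cells, with a median of 0.11. Eci1, the enoyl-CoA isomerase for unsaturated fatty acids, read 7.20, 6.89 and 7.49 on the WT arrays, 5.42, 6.16 and 6.47 on the Het arrays and 6.90, 7.41 and 5.94 on the KO arrays. Its Het arrays lay below every WT array, by 1.18 on average, and overlapped the KO arrays. Acaa2, a thiolase, had its highest values in Het cells, at 5.79 ± 0.129 for WT, 6.32 ± 0.195 for Het and 5.61 ± 0.180 for KO cells. Its Het arrays, at 6.18, 6.23 and 6.54, lay above every WT and KO array, as 0.787% of all genes tested did. Hadh, the short-chain hydroxyacyl-CoA dehydrogenase, differed by −0.12 and Echs1, the short-chain hydratase, by 0.29 between KO and WT cells.

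The electron donors of Etfdh had other orders of the genotypes. Etfa, the alpha subunit of the electron transfer flavoprotein, averaged 8.19 ± 0.172 on WT, 8.43 ± 0.399 on Het and 8.20 ± 0.0808 on KO arrays. Etfb, the beta subunit, read 8.89 ± 0.398, 8.94 ± 0.471 and 8.17 ± 0.246, with a KO minus WT difference of −0.72 (SE 0.305, adjusted p = 0.589). Acad9, an acyl-CoA dehydrogenase that also helps to assemble respiratory complex I, differed by 0.89 (adjusted p = 0.556). The 4 branched-chain and amino acid acyl-CoA dehydrogenases split evenly, with a median of 0.05. Peroxisomal genes were higher for 7 of 12 and lower for 5, with a median of 0.03, and Hsd17b4, the peroxisomal bifunctional enzyme, differed by −0.01.

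Regulators were lower for 11 of 19 and higher for 8 (median −0.09). Pml, named here after its values were seen, read 7.45, 7.45 and 7.94 on the WT arrays, 8.31, 7.97 and 8.72 on the Het arrays and 8.18, 8.21 and 8.41 on the KO arrays. Both Cre-carrying groups lay above every WT array. Taken singly, KO arrays did so for 6.51% and Het arrays for 4.51% of all genes tested, and the joint share was not counted. The KO minus WT difference was 0.65 (SE 0.258, adjusted p = 0.564 with limma). Nrip1, a nuclear receptor corepressor chosen in the same way, lay higher on every KO than on every WT array, as 6.51% of all genes tested did. Its KO minus WT difference was 1.10 (SE 0.363, adjusted p = 0.514 with limma). Ppara read 3.74 ± 0.434 in WT and 3.18 ± 0.148 in KO cells, in the span of absent transcripts, and Ppargc1a, the coactivator of mitochondrial biogenesis, lay under the level filter at 2.73 and 2.82. Ppard, the PPAR tied to HSC maintenance, averaged 4.92 ± 0.519 on WT, 4.92 ± 0.466 on Het and 4.62 ± 0.355 on KO arrays (adjusted p = 0.803 for the KO). Acaca, which makes malonyl-CoA, an inhibitor of CPT1, differed by −0.03 between KO and WT. Acacb, which also makes malonyl-CoA and was named afterwards, differed by −0.27. It averaged 3.50 over all arrays, in the span of absent transcripts. PPAR targets outside beta-oxidation were higher for 4 of 9 (median −0.06), among them Pdk4, a kinase that restrains pyruvate oxidation, at 0.40 (adjusted p = 0.687). The Pdk4 means of 3.92 in WT and 4.33 in KO cells lay in and just above the span of absent transcripts. Fatty acid synthesis genes were higher for 9 of 11 (median 0.33), with Fasn, fatty acid synthase, at 0.07.

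**Figure D4:**
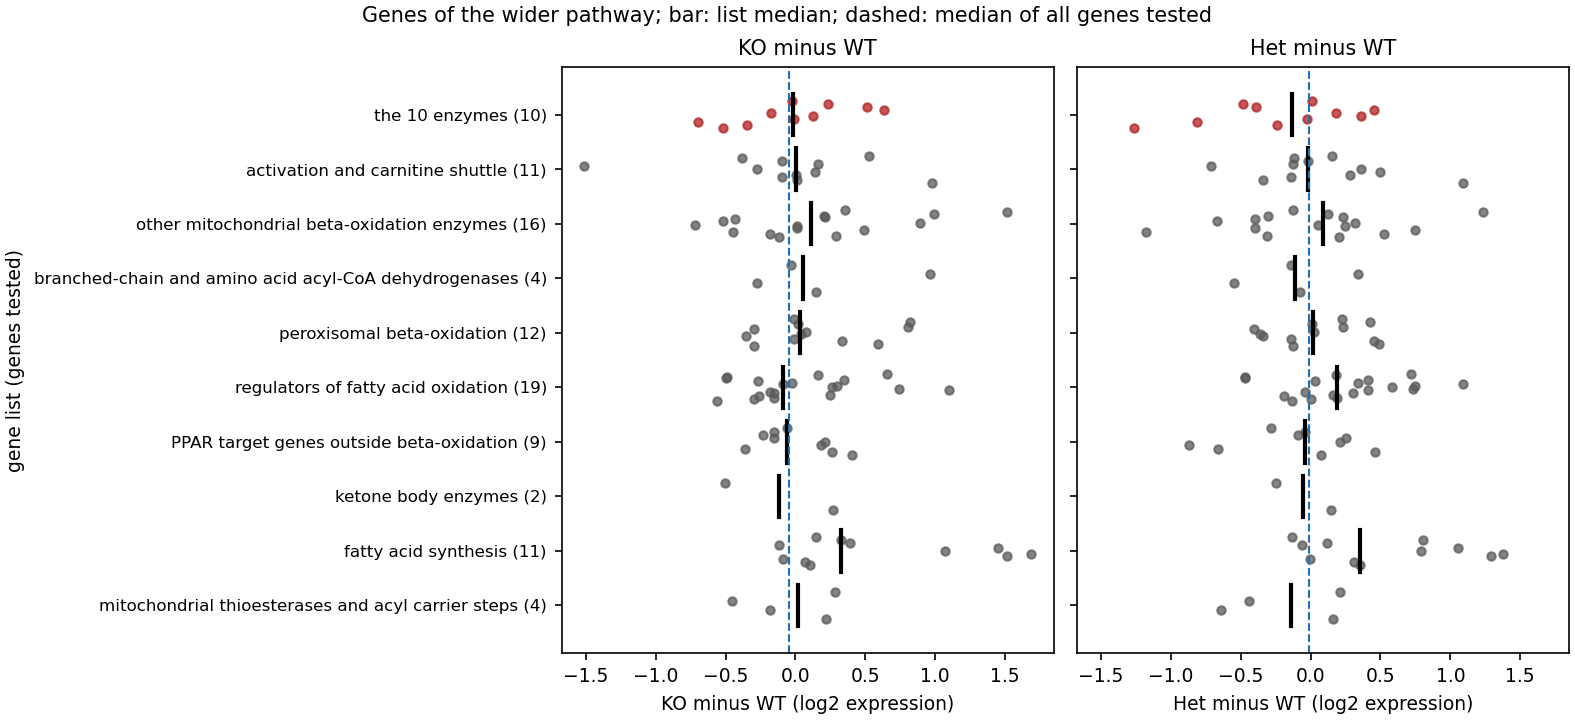
Log2 difference from WT of each tested gene in the 10 enzymes (red) and in 9 further lists, for KO (left) and Het (right); black bars are list medians and the dashed line is the median of all genes tested. In the KO panel no gene passed at an adjusted p under 0.05, and the list medians lie between −0.14 and 0.35 over both panels.

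Markers of HSCs and of other cells were set beside these values, and their part in the enzyme differences was not tested. The mean of 9 measured HSC identity genes, of 11 listed, was 5.83 to 6.89 on WT, 7.20 to 7.47 on Het and 7.35 to 8.01 on KO arrays. All 9 were higher in KO and in Het than in WT cells, with median differences of 1.30 and 0.58. All KO arrays lay above all WT arrays for 6 of the 9 (6.51% of all genes tested), and all Het arrays for 4 (4.51%). None passed between KO and WT (smallest adjusted p = 0.0566 with limma). The mean of 14 granulocyte and monocyte genes was 5.22 to 5.91, 5.09 to 5.81 and 5.01 to 5.23. Within that list 3 abundant genes were named after their values were seen. S100a8, a neutrophil calprotectin subunit, read 8.42 to 8.97 on WT, 5.06 to 8.74 on Het and 2.31 to 6.74 on KO arrays (KO minus WT −3.86, adjusted p = 0.410). S100a9, its partner, differed by −1.99 (adjusted p = 0.583), and Lyz2, lysozyme, by −1.03 (adjusted p = 0.427 with limma). Lyz2 lay below every WT array on both Het and KO arrays, as 1.36% of all genes tested did. Of the 14 genes, 4 were higher and 10 lower in KO than in WT cells. The higher ones included Cd68 (1.63, adjusted p = 0.557) and Itgam (1.21, adjusted p = 0.563 with limma), also named after their values were seen. The mean of 7 of 8 B cell genes was 4.43 to 4.6, 4.21 to 4.47 and 3.93 to 4.05. The means of 5 of 12 erythroid genes, at 4.49 to 4.77, 4.50 to 4.95 and 4.23 to 4.88, of 8 of 9 T and NK cell genes, at 3.93 to 4.04, 3.70 to 3.99 and 3.71 to 4.08, and of 5 of 6 megakaryocyte genes, at 5.71 to 6.25, 5.68 to 6.48 and 5.83 to 6.68, overlapped between the genotypes. So did those of 9 stromal, endothelial and adipocyte genes, at 3.89 to 4.25, 3.96 to 4.35 and 4.10 to 4.40. Those of 5 mast cell and basophil genes, 3 of them above the level filter, were 3.28 to 3.63, 2.95 to 3.38 and 2.92 to 3.27. KO lay below WT only marginally there, at 3.274 against 3.278. The mast cell and basophil means, like the T and NK cell means, lay in the span of absent transcripts. The 7 of 9 measured genes whose products the gate excludes averaged 3.76 to 4.18, 3.83 to 3.97 and 3.57 to 4.21.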

How the data were processed

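Per the labels' protocols, amplified RNA of sorted HSCs was measured on Affymetrix Mouse Gene 2.0 ST arrays. The authors deposited log2 expression of each probe set from RMA, as the submitters' processing notes state. Neither the settings of RMA nor a build is given in the sources used here. RMA compresses differences of dim transcripts. Of 41345 probe sets 23521 named 1 gene; symbols were updated through gene identifiers for 23328. Where a gene had several, the brightest by its 9-array mean stood for it, and genes under the 25th percentile (a mean of 3.31) were left out. limma 3.58.1 in R 4.3.3 (lmFit, eBayes) fitted a mean per genotype over all 9 arrays, with Benjamini-Hochberg adjustment over 16636 genes, two-sided, called at 0.05; the median SE of KO minus WT was 0.298. The number of arrays limits the precision. The replicates are called biological, with no further detail, so p-values measure the spread between these samples.

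The enzymes, gene lists and tests were chosen with earlier results of these data known. Genes named were the 10 enzymes, 22 pathway genes fixed by name (not all are reported; Cpt1b and Acsl1 had no probe set naming them alone), the 5 nearest profiles to Acadm and its tested neighbours; others are said to be chosen afterwards. Alternatives changed the normalization, filter, probe set rule, weights, terms and arrays.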

Additional observations from a re-analysis of the deposited data

How the results depend on the processing

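No enzyme passed between KO and WT under any of the 18 alternatives run (smallest adjusted p with limma 0.291), and 5 of 10, Acadm, Acadvl, Cpt1a, Cpt2 and Etfdh, kept their sign in all of them. The sign turned for Hadha after a second quantile normalization (−0.0167) and with array spread, as interquartile range, in the fit (−0.0214), for Acads (0.0394), Decr1 (0.0791) and Hadhb (0.0741) with array weights, and for Acads with sex as a term (0.0128). Leaving out single arrays gave ranges of −0.68 to 0.07 for Acadl, −0.145 to 0.065 for Acads, −0.39 to 0.35 for Decr1 and −0.66 to 0.24 for Hadhb. The count of all genes called between KO and WT, 7, was 3 after a second quantile normalization, 4 under a filter at the median level, 24 with array weights, 3 with sex as a term, 0 with array spread in the fit, 1 with only the arrays of both groups, and 0 to 15 with 1 array left out. With the replicate block it was 0; same-numbered arrays correlated at −0.185 to 0.229 in their deviations from group means, so the numbers were not taken as pairs, and no enzyme's call changed. No gene was called between Het and WT or KO and Het in the main comparison, where 813 and 759 had an unadjusted p under 0.05. The causes of these changes were not tested. The dim readings of Hadhb limit what can be said of it.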

Other observations

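Of the fatty acid synthesis genes, 4 that elongate or desaturate fatty acids, named here after their values were seen, had the largest KO minus WT differences in their list. Others of the same functions read otherwise: the elongase Elovl1 differed by −0.09 and the desaturase Scd1, which lay under the level filter, by −0.47. Elovl6, the elongase of saturated chains, read 5.07, 5.0 and 6.68 in WT, 8.24, 6.40 and 6.24 in Het and 7.21, 7.38 and 7.22 in KO cells. Every KO array lay above every WT array, as for 6.51% of all genes tested (KO minus WT 1.69, adjusted p = 0.514 with limma). Elovl5 read 5.85, 5.09 and 8.10 in WT and 7.82, 7.62 and 8.13 in KO cells (1.51, adjusted p = 0.610). Fads2, a desaturase of polyunsaturated chains, read 6.00, 7.16 and 7.54 in WT and 8.77, 8.77 and 7.51 in KO cells (1.45, adjusted p = 0.581). Fads1, its partner, read 4.82 on WT replicate 1 and 6.56 to 7.89 on the other 8 arrays.

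Mmut, the methylmalonyl-CoA mutase that handles the propionyl-CoA of odd chains, was the gene with the smallest adjusted p of the pathway lists between KO and WT and was named for that reason. It read 4.44, 5.16 and 6.28 in WT, 6.55, 6.20 and 6.82 in Het and 7.23, 6.25 and 6.95 in KO cells (KO minus WT 1.52, SE 0.440, adjusted p = 0.421). One KO array, replicate 2, lay within the WT range.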
